A study of Mus musculus with 45 samples.

Results

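The 10 genes described here are the constant region genes of the mouse immunoglobulin chains whose symbols were Ighm, Ighd, Ighg1, Ighg2b, Ighg2c, Ighg3, Igha, Ighe, Igkc and Iglc1. They were taken by symbol from a table of 55450 genes and not by their measured values, though earlier results of these data were known. Of the 10 genes, 8 encode heavy chains and 2 encode light chains. RNA-seq was done on lymphocytes sorted from the popliteal draining lymph nodes (dLNs) of S1PR4-/- mice and wild-type (WT) littermates, in 45 samples of 8 groups. S1PR4 is a sphingosine-1-phosphate receptor of both myeloid and lymphoid cells. The null allele (S1pr4tm1Dgen) was carried in the germline, so in all cells of the animal, and had been backcrossed to C57/BL6 for at least 10 generations. Male and female mice of 8 to 12 weeks received OVA (50 µg) and LPS (5 µg) emulsified in IFA, in a volume of 20 µl, in the hind footpad, so that every group, controls included, came from immunised mice.

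On day 9, GC B cells (B220+ GL7+ Fas+) were sorted from 6 WT and 6 S1PR4-/- samples, and non-GC B cells (B220+ GL7- Fas-) from 5 WT and 4 S1PR4-/- samples. On day 6, TFH cells (TCRβ+ CD4+ PD1+ CXCR5+) and non-TFH cells (PD1- CXCR5-) were sorted from 6 samples of each genotype. The study's methods give 6 WT and 6 S1PR4-/- mice for the sorts, but the labels tie no sample to a mouse, so p-values measure the spread between these samples. The B cell gates named no marker that sets plasmablasts apart, and B and T cells differed in day as well as cell type. Summed counts were 26299429 to 45548215 per sample. S1pr4 had 505 to 6305 counts in WT samples and 0 to 40 in S1PR4-/- samples, so every sample went with its genotype label. The 8 GC marker genes were all called higher in GC than in non-GC B cells in both genotypes (24.8 and 25.3% of all genes tested were, in WT and S1PR4-/- mice). The summed level of 12 T cell markers was 8383 to 11396 CPM (counts divided by the sample's summed counts, scaled to a common total) in T cell samples and 211 to 357 CPM in B cell samples.

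An antibody is built from paired heavy and light chains, and the constant region of the heavy chain sets its isotype. A naive B cell makes IgM and IgD from the same long transcript by alternative splicing. On activation, the switch regions in front of the heavy chain constant genes are cut, the DNA between is lost, and a gene further along the locus (a γ, ε or α gene) is brought behind the rearranged variable exon. Each light chain carries either a κ or a λ constant region, and in mice κ is much the more common. A constant gene is also transcribed from its own germline promoter without switching, and reads from such transcripts cannot be told apart from those of a switched chain in gene counts.

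The 8 heavy chain genes lie on the minus strand of chromosome 12 in the mm10 assembly, so that transcription runs toward lower coordinates. In that order they are Ighm (chr12:113418558-113422730), Ighd (chr12:113406604-113416324), Ighg3 (chr12:113356224-113361232), Ighg1 (chr12:113325240-113330523), Ighg2b (chr12:113302965-113307933), Ighg2c (chr12:113285325-113288932), Ighe (chr12:113269260-113273248) and Igha (chr12:113254830-113260236). Igkc lies on the plus strand of chromosome 6 (chr6:70726435-70726966) and Iglc1 on the minus strand of chromosome 16 (chr16:19061618-19062071). These spans are those of the GENCODE M21 annotation.

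The 4 γ genes resemble each other, and their hinge exons (exon 2 of each, coding) are shown because this flexible link between the arms and the stem of IgG tells the 4 apart. Capitals mark the cysteine codons in the reading frame of the exon, whose cysteines can form disulphide bonds between the paired heavy chains.
Ighg3: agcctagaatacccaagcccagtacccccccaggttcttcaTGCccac
Ighg1: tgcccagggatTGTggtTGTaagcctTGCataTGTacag
Ighg2b: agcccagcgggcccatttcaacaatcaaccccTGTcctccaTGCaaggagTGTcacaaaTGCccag
Ighg2c: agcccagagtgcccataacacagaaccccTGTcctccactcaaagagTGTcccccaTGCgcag
These exons are at chr12:113360529-113360576 (48 bases, 1 cysteine codon), chr12:113329844-113329882 (39 bases, 4 codons), chr12:113307261-113307326 (66 bases, 4 codons) and chr12:113288263-113288325 (63 bases, 3 codons). None of the 4 sequences occurred in the exons of another of the 10 genes. Over whole exons the genes were less distinct: 14.98% of the 31-base words of Ighg2c occurred in another of the 10 genes, 14.4% in Ighg2b, against 9.29% for Ighg2b, 3.63% for Ighg3 and 1.72% for Ighg1. The split of reads between Ighg2b and Ighg2c, which the counting estimated, is therefore less certain than that of the other genes.

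The first comparison asked which isotypes GC B cells carried and in what proportion. Each heavy chain gene was expressed as its percent of the summed counts of the 8 heavy chain genes in the same sample, which does not depend on scaling between samples. In non-GC B cells Ighm and Ighd made up nearly all of the sum, and in GC B cells Ighg1, Ighg2b and Ighg2c did. The 6 genes downstream of Ighd together held 80.5 to 92.8% of the sum in WT GC B cells (median 85.3%) and 71.2 to 96.5% in S1PR4-/- GC B cells (median 83.3%). In non-GC B cells they held 4.87, 7.45, 16.6, 2.60 and 2.098% in the 5 WT samples, and the 4 S1PR4-/- samples had 8.74, 10.2, 5.34 and 11.4%. GC and non-GC B cells did not overlap in either genotype.

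**Figure D1:**
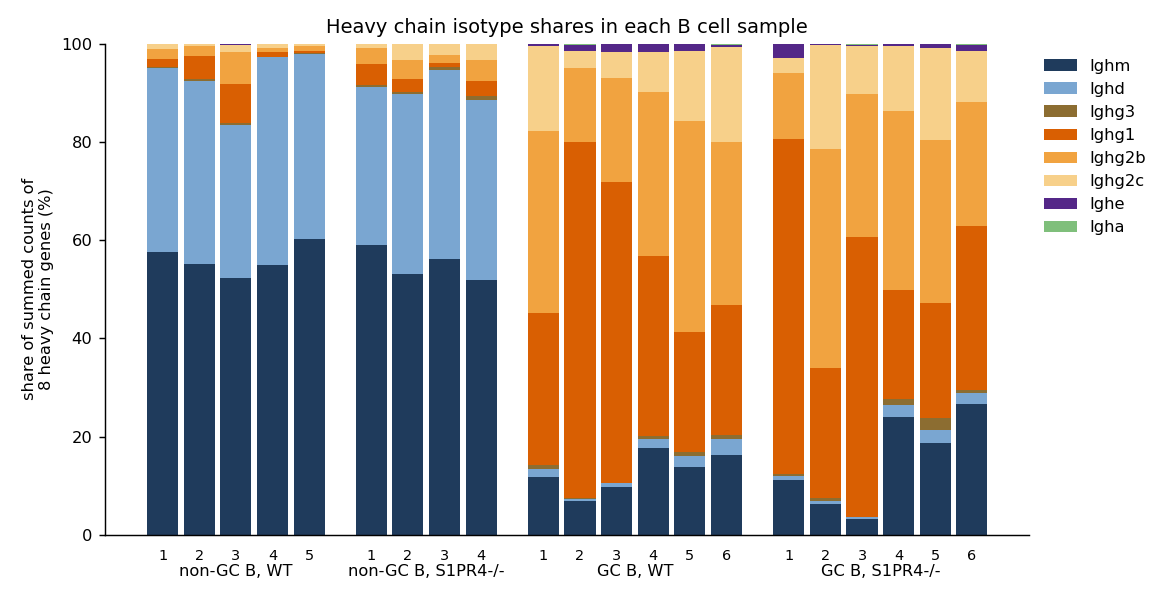
Stacked bars, 1 per B cell sample, of the percent of the summed counts of the 8 heavy chain constant genes held by each gene (y axis, 0 to 100%). Ighm and Ighd fill most of each non-GC B bar, and the 3 γ genes Ighg1, Ighg2b and Ighg2c fill most of each GC B bar, where the split between them varies from sample to sample.

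Ighm, which encodes the μ chain of IgM, held 12.6 ± 4.10% (mean ± SD, n = 6) of the heavy chain counts in WT GC B cells and 56.0 ± 2.96% (n = 5) in WT non-GC B cells. Ighd, which encodes the δ chain of IgD on resting mature B cells, held 1.70 ± 1.02% and 37.2 ± 4.05%. Both shares were lower in GC B cells by the two-sided exact permutation test (p = 0.00216 for each, the smallest this design allows, and 0.026 after Benjamini-Hochberg adjustment over the 36 share comparisons made). In S1PR4-/- mice the same shares were 14.998 ± 9.63% (n = 6) against 55.1 ± 3.20% (n = 4) for Ighm and 1.499 ± 0.98% against 35.98 ± 2.67% for Ighd, with an exact permutation p of 0.00476 for each, again the smallest possible, and an adjusted p of 0.0286.

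Ighg1, which encodes the γ1 chain and is the isotype most linked to IL-4 in mice, took the largest mean share in GC B cells, 42.1 ± 20.0% in WT and 38.5 ± 19.5% in S1PR4-/-. Its range within a genotype was wide, from 24.5 to 72.6% in WT and from 22.1 to 68.3% in S1PR4-/- samples. Ighg2b, which encodes γ2b, held 30.5 ± 10.3% and 30.3 ± 10.6%, with a range of 15.2 to 43.0% and of 13.4 to 44.6%. Ighg2c, which encodes γ2c, the C57BL/6 counterpart of IgG2a and the isotype most linked to IFN-γ, held 11.3 ± 6.59% and 12.8 ± 6.57%. These are shares of counts, so the proportions between genes depend on their length. In WT GC B cells Ighg2b and Ighg2c were 3554 and 2694 CPM per kilobase of exon, and 8543 and 3216 per kilobase of shortest transcript. The ranges of Ighg1 and Ighg2b overlapped, and the ratio of their counts ran from 0.57 to 4.79 among WT GC B samples and from 0.60 to 5.11 among S1PR4-/- ones, so that Ighg1 was above Ighg2b in some samples of each genotype and below it in others.

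In non-GC B cells the same 3 genes held 3.12 ± 3.19, 2.44 ± 2.30 and 0.82 ± 0.46% in WT, against 2.76 ± 1.37, 3.17 ± 1.13 and 2.38 ± 1.17% for S1PR4-/- mice. All 3 shares were higher in WT GC B cells (adjusted exact permutation p = 0.026 for Ighg1, 0.0286 for Ighg2b and 0.0292 for Ighg2c, n = 6 and 5). In S1PR4-/- mice Ighg1 and Ighg2b passed (adjusted p = 0.0343 for each, exact permutation test, n = 6 and 4) and Ighg2c did not (0.0935). The Ighg1 share there did not pass in 8 of 10 refits that left out 1 sample, among them those without any of the 4 non-GC samples (adjusted exact permutation p = 0.107 to 0.129), nor with counts per exonic length (0.0623). Its difference in the 10 refits was 29.8 to 39.0 percentage points, and fewer splits were left in each. Ighe, which encodes the ε chain of IgE, held 1.02 ± 0.56% in WT GC B cells against 0.0189 ± 0.0423% in non-GC B cells (adjusted exact permutation p = 0.0292). In S1PR4-/- mice the Ighe shares were 0.93 ± 1.03% against 0.00148%, with an adjusted exact permutation p of 0.171. Ighg3 and Igha, which encode the γ3 and α chains, were minor genes in every B cell group, with mean shares of 0.27 to 0.88% and of 0.05 to 0.14%, and neither share passed in either genotype.

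In all, 6 of 9 shares (the 8 heavy chain shares and that of Iglc1 in Igkc plus Iglc1) passed in WT and 4 of 9 in S1PR4-/- mice. With medians in place of means none passed in either genotype, although the Ighm difference was still -42.4 percentage points in WT and -39.7 in S1PR4-/- mice. The S1PR4-/- count fell to 2 without GC B replicate 2, 4, 5 or 6 and to 3 without replicate 3. In the refits that gave 2, the Ighg1 difference was 36.7 to 39.0 percentage points, beside 35.7 in the main test. That of Ighg2b was 24.3 to 28.2, beside 27.1. Leaving out a sample leaves fewer splits and a larger smallest p, so these losses cannot show that the result rests on few samples. The Ighg2c share in WT no longer passed when any of the 5 non-GC samples was left out (adjusted exact permutation p = 0.0686 each time), although its difference stayed between 10.4 and 10.7 percentage points.

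The levels of the genes, as CPM scaled with TMM factors, added the light chains and the size of each change. In the edgeR quasi-likelihood test, all 10 genes were tested in each genotype, and a gene was called where its Benjamini-Hochberg adjusted p (FDR) was below 0.05 and its fold change above 1.5. In WT, 8 of the 10 were called higher in GC than in non-GC B cells (24.8% of all genes tested were) and 2 were called lower (23.1%). In S1PR4-/- mice the counts were also 8 higher (25.3% of all genes) and 2 lower (22.9%), and the same genes were called in each direction. The median log2 fold change of the 10 genes was 2.92 in WT and 2.68 in S1PR4-/-, beside 0.002 and 0.034 over all genes tested. In bulk samples, fewer cells of a type and less RNA per cell cannot be told apart.

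**Figure D2:**
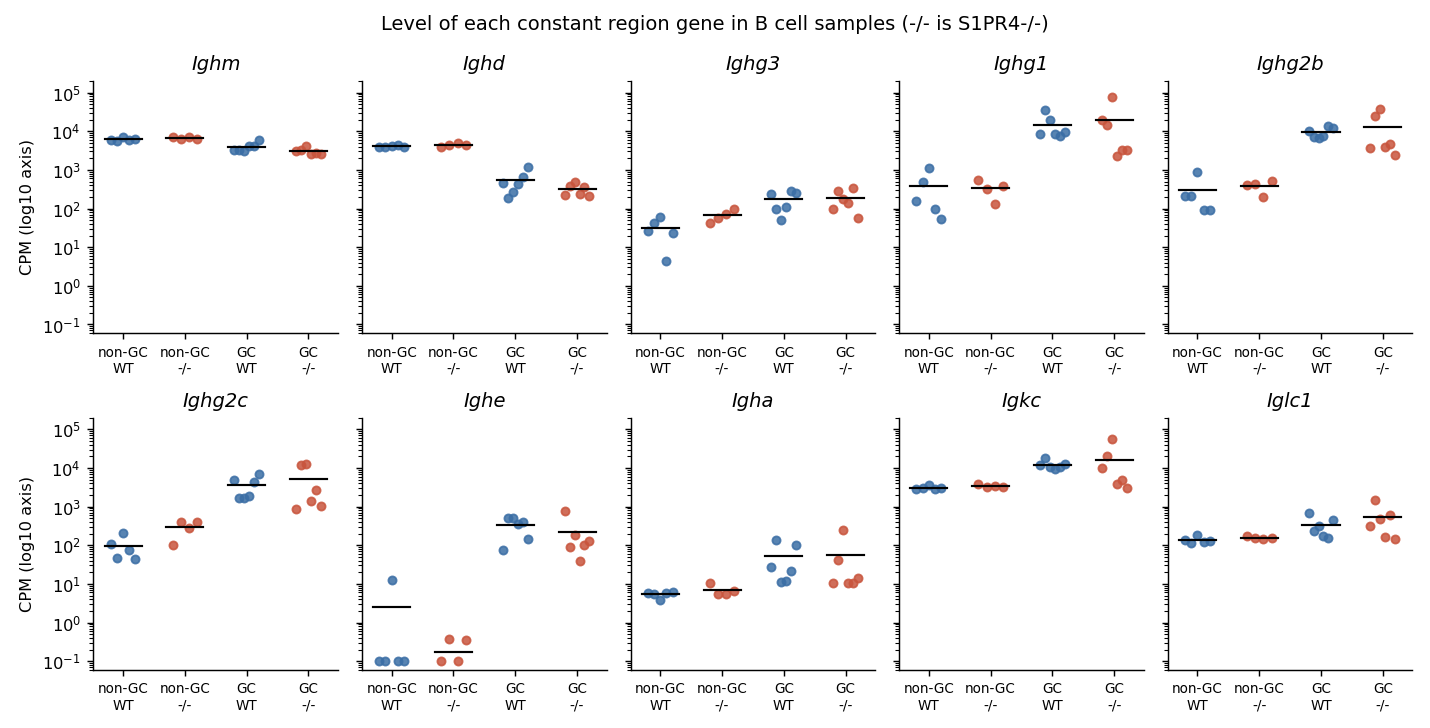
Level of each of the 10 genes (CPM, log10 axis) in every sample of the 4 B cell groups, with 1 point per sample and a black line at the group mean. Ighm and Ighd lie lower in GC than in non-GC B cells, the γ genes, Igha and Ighe lie higher, and Ighg1, Ighg2b and Igkc spread more widely in S1PR4-/- than in WT GC B cells.

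Ighm ranged from 3007 to 5841 CPM (median 3697) in WT GC B cells, and the 5 WT non-GC samples had 6075, 5726, 7163, 5894 and 6245 CPM. The highest GC sample lay above the lowest non-GC sample, so the groups overlapped. Ighm fell by 0.59 on the log2 scale (SE 0.16, FDR 0.00476), just past the 1.5-fold limit, and it was no longer past it without WT GC B replicate 1, 2 or 3 or WT non-GC B replicate 3 (log2 fold changes of -0.55, -0.55, -0.52 and -0.53) or with DESeq2 (-0.58). In the S1PR4-/- samples it fell by 1.08 (SE 0.14, FDR 4.60e-05), from 7314, 6303, 7225 and 6324 CPM in non-GC samples to 2544 to 4175 CPM (median 2907) in GC samples, without overlap. Ighd changed far more: it was 3956, 3885, 4251, 4551 and 3919 CPM in WT non-GC B cells and 184 to 1185 CPM (median 451) in GC B cells (log2 fold change -2.89, SE 0.38, FDR 2.27e-05). The S1PR4-/- samples went from 3981, 4354, 4932 and 4455 CPM to 215 to 478 CPM (median 309), with a log2 fold change of -3.74 (SE 0.22, FDR 1.20e-07). The 2 groups did not overlap in either genotype.

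Ighg1, Ighg2b and Ighg2c rose by the largest folds among the members with counts in every non-GC B sample. Ighg1 was 160, 473, 1105, 99.1 and 53.7 CPM in WT non-GC B cells and 7616 to 35049 CPM (median 9075) in WT GC B cells (log2 fold change 5.36, SE 0.86, FDR 1.26e-04). The S1PR4-/- samples had 533, 311, 128 and 378 CPM in non-GC B cells and 2339 to 74963 CPM (median 8940) in GC B cells (log2 fold change 5.91, SE 1.19, FDR 0.00107). The lowest GC sample was above the highest non-GC sample in both genotypes, but S1PR4-/- GC B cells ranged far more widely.

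Ighg2b was 212, 207, 879, 94.1 and 91.1 CPM in WT non-GC B cells and 6660 to 13353 CPM in GC B cells (log2 fold change 5.06, SE 0.63), and in S1PR4-/- mice 397, 442, 202 and 507 CPM against 2437 to 38225 CPM (5.11, SE 0.95). Ighg2c was 109, 46.3, 208, 75.3 and 43.7 CPM in WT non-GC B cells and 1630 to 6970 CPM in GC B cells (5.27, SE 0.59), and in S1PR4-/- mice 100, 391, 279 and 394 CPM against 862 to 13035 CPM (4.18, SE 0.96). Neither gene overlapped between GC and non-GC B cells in either genotype. Ighg3, whose product is made largely against carbohydrate antigens and whose gene lies first among the γ genes, changed less, with log2 fold changes of 2.52 (SE 0.59, FDR 0.00199) in WT and 1.51 (SE 0.46, FDR 0.0126) in S1PR4-/- mice, and its GC and non-GC samples overlapped in both.

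Igha, the gene of mucosal IgA, was 3.89 to 6.33 CPM in WT non-GC B cells and 11.3 to 139 CPM in GC B cells (log2 fold change 3.32, SE 0.69, FDR 8.68e-04). Its S1PR4-/- levels were 5.36 to 10.3 CPM against 10.6 to 247 CPM (3.06, SE 1.03, FDR 0.0221), so that its lowest GC value lay next to its highest non-GC value. Ighe was at 0 in 4 of 5 WT non-GC samples and at 13.0 CPM in replicate 3, and it was 73.5 to 509 CPM (median 371) in WT GC B cells. In S1PR4-/- mice the non-GC samples had 0, 0.36, 0 and 0.34 CPM, and the GC samples 40.0 to 788 CPM (median 116). The fitted log2 fold changes of 6.97 and 10.36 (FDR 4.11e-04 and 3.35e-05) depend on how the zeros were treated, and no size is read from them.

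Igkc, which encodes the κ light chain, rose less than Ighg1, Ighg2b and Ighg2c. It was 2845, 2952, 3608, 2875 and 3072 CPM in WT non-GC B cells and 9508 to 17843 CPM (median 11414) in GC B cells, with a log2 fold change of 2.06 (SE 0.17, FDR 3.28e-07), and these groups did not overlap. Its S1PR4-/- levels were 3777, 3149, 3347 and 3276 CPM against 3115 to 54697 CPM (median 7336), with a log2 fold change of 2.31 (SE 0.79, FDR 0.023). There the groups overlapped, and the call was lost without non-GC replicate 2, 3 or 4 (FDR 0.0598, 0.0583 and 0.0583). Leaving out those same replicates also ended the call for Igha (FDR 0.0607, 0.0609 and 0.0573), and leaving out replicate 3 ended that for Iglc1 (FDR 0.0504). With limma voom, Igkc, Igha and Ighe were not called there (FDR 0.0654, 0.144 and 0.0989).

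Iglc1, the λ1 constant gene, went with Igkc in direction, while the other λ constant genes did not. It was 112 to 189 CPM in WT non-GC B cells and 157 to 690 CPM (median 270) in GC B cells (log2 fold change 1.34, SE 0.35, FDR 0.00425), and in S1PR4-/- mice 147 to 170 CPM against 144 to 1492 CPM (1.82, SE 0.59, FDR 0.0181). Iglc2 and Iglc3, which are not among the 10 genes and encode λ2 and λ3, fell by 1.18 (SE 0.16) and 0.62 (SE 0.14) in WT and by 1.16 (SE 0.32) and 0.87 (SE 0.29) in S1PR4-/- mice on the log2 scale, all called. Iglc1 thus made up 35.9 ± 13.0% of the counts of these 3 λ genes in WT GC B cells against 11.02 ± 1.80% in non-GC B cells, and 42.0 ± 13.1% against 10.9 ± 0.83% in S1PR4-/- mice, without overlap in either. This λ share was noticed after the values were seen and carries no test. As a share of Igkc plus Iglc1, Iglc1 held 2.69 ± 1.54% in WT GC and 4.28 ± 0.51% in WT non-GC B cells, which did not pass (adjusted exact permutation p = 0.171).

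**Figure D3:**
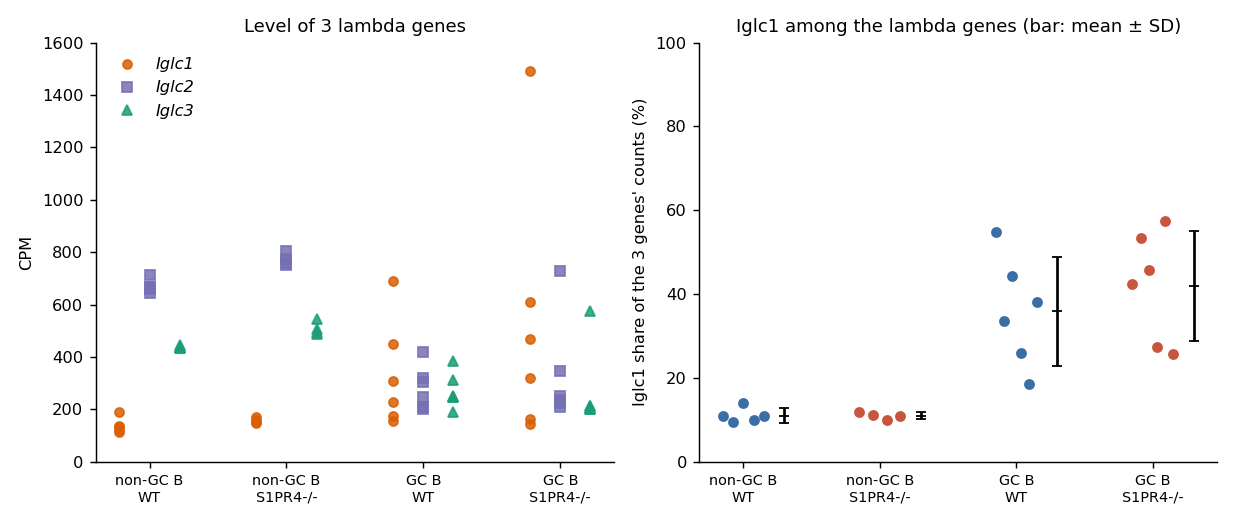
Levels of Iglc1, Iglc2 and Iglc3 (CPM) and Iglc1 as a percent of their summed counts in the 4 B cell groups, with 1 point per sample and the mean ± SD. Iglc1 is about 11% of the 3 genes in non-GC B cells of both genotypes, and 35.9% and 42.0% on average in WT and S1PR4-/- GC B cells.

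Levels of different genes can be set side by side only per length. In CPM per kilobase of exon, WT GC B cells had Igkc first (22993 ± 5629, n = 6), then Ighg1 (5688 ± 4179), Ighg2b (3554 ± 1015), Ighg2c (2694 ± 1640), Ighm (2096 ± 563), Iglc1 (739 ± 450), Ighd (280 ± 190), Ighe (207 ± 115), Ighg3 (68.9 ± 39.4) and Igha (19.5 ± 20.5). The ranges of neighbours in this order overlapped, except those of Igkc and Ighg1 and of Ighm and Iglc1. The order was the same with the length of the shortest annotated transcript, which in the heavy chain genes ends in the secreted form. In WT non-GC B cells, Igkc was again first, but Ighm stood above Ighd by exon length and below it by shortest transcript, so the order of these genes depends on which length is used.

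The sizes of several S1PR4-/- changes leaned on a single sample, in a group that was itself uneven. S1PR4-/- GC B replicate 3 had 74963 CPM of Ighg1, 38225 CPM of Ighg2b and 54697 CPM of Igkc. The 10 genes together took 15.2% of its counts, and 3.80, 7.22, 1.48, 1.93 and 1.26% in replicates 1, 2, 4, 5 and 6. They took 3.17 to 6.26% in WT GC B cells and 1.33 to 1.70% in non-GC B cells. Replicates 1 to 3 thus lay above replicates 4 to 6. The share of the 6 genes downstream of Ighd split likewise (88.0, 93.1 and 96.5% against 73.6, 78.7 and 71.2%). The summed level of the 8 plasma cell markers, which include Jchain, Sdc1, Prdm1 and Xbp1, was 18865 CPM in replicate 3. In replicates 1, 2, 4, 5 and 6 it was 6540, 9304, 2741, 3145 and 2804 CPM. It was 4746 to 9747 CPM in WT GC B cells and 850 to 1212 CPM in non-GC B cells, with no marker at 0 in any group. All 8 of these markers were called higher in WT GC than non-GC B cells and 7 of 8 in S1PR4-/- mice (24.8 and 25.3% of all genes were). Their part in the levels of the 10 genes was not tested. Without replicate 3 all 10 genes were still called in S1PR4-/- mice, with log2 fold changes of 4.73 for Ighg1, 4.41 for Ighg2b, 1.41 for Igha and 1.40 for Igkc. Those of Ighd, Ighg3 and Iglc1 stayed near their main values, at -3.895, 1.52 and 1.86. WT non-GC replicate 3 was the sample of its group with the most Ighg1 (1105 CPM), Ighg2b (879 CPM), Ighe (13.0 CPM) and Jchain (256 CPM, against 14.04 to 79.7 CPM in the other 4).

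Genes that act on these loci were taken as lists of known function. Of 17 genes of the class switch machinery, 9 were called higher and 1 lower in GC than in non-GC B cells in both genotypes (24.8 and 23.1% of all genes in WT, 25.3 and 22.9% in S1PR4-/- mice), and the median log2 fold change of the list was 0.61 in WT and 0.66 in S1PR4-/- mice. Ung, which removes uracils from DNA, rose by 1.08 on the log2 scale in WT and 1.03 in S1PR4-/- mice, and Msh6, a mismatch recognition factor, by 1.36 and 1.72. Shld2, a shieldin subunit that protects DNA ends, was the gene called lower (log2 fold change -0.61 and -0.72).

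Among 4 genes of heavy chain RNA processing, 2 were called higher and 1 lower in both genotypes, beside the same shares of all genes. Zfp318, which is needed for the long transcript spliced to IgD, fell with Ighd, from 231 to 303 CPM in WT non-GC B cells to 13.9 to 68.8 CPM in GC B cells (log2 fold change -2.89, SE 0.31) and by 3.43 (SE 0.22) in S1PR4-/- mice. Ell2, an elongation factor that favours the secreted heavy chain, rose by 1.81 and 1.75, and Hnrnpll, a splicing regulator of plasma cells, was 1.43 to 12.2 CPM in WT GC B cells and 0 to 0.62 CPM in non-GC B cells. Of 6 partners of the receptor and of secretion, 3 were called higher and 2 lower in both genotypes, again beside those shares of all genes. Jchain, the joining chain of polymeric IgM and IgA, rose by 5.24 (SE 0.70) and 5.46 (SE 0.79), Mzb1, a folding factor of IgM, by 2.62 in both, and Cd79a and Cd79b, the signalling chains of the B cell receptor, fell by 0.85 and 0.62 in WT and by 1.05 and 0.75 in S1PR4-/- mice.

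Of 12 receptors and factors that direct switching to given isotypes, 2 were called higher and 6 lower in both genotypes, beside the same shares of all genes. The share called higher was below that of all genes. Tbx21, which encodes T-bet and favours IgG2c, rose by 2.37 and 2.02 on the log2 scale, and Tgfbr1, a TGF-β receptor, by 0.76 and 0.77. Il4ra and Stat6, which carry the IL-4 signal, fell by 1.13 and 1.27 in WT and by 1.24 and 1.22 in S1PR4-/- mice, and Ifngr2, Tgfbr2 and Cd40 were among the others called lower.

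The next comparison asked whether the constant genes differed between S1PR4-/- and WT B cells. In GC B cells none of the 10 genes was called, in a comparison where 0.0612% of all genes tested were. By edgeR none was below an unadjusted p of 0.05, and DESeq2 and limma voom called none either. The log2 fold changes were positive for 7 genes and negative for 3, with a median of 0.27 (0.005 over all genes), and the estimates were wide. For Ighg1 the estimate was 0.42 with an interval of 2 SE on either side from -1.16 to 2.01, for Ighg2b 0.45 (-0.80 to 1.71), for Ighg2c 0.53 (-0.87 to 1.93) and for Igkc 0.42 (-0.81 to 1.66). Those of Ighg3, Igha, Ighe and Iglc1 were 0.08, 0.11, -0.56 and 0.67 (SE 0.47, 0.93, 0.66 and 0.55). Ighm and Ighd had the smallest p-values, with log2 fold changes of -0.36 (-0.71 to -0.002) and -0.74 (-1.502 to 0.03), both at an FDR of 0.985. Without S1PR4-/- replicate 3 the estimates for Ighg1, Ighg2b and Igkc turned to -0.80, -0.28 and -0.52, none of them called, so no direction can be given for these genes.

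**Figure D4:**
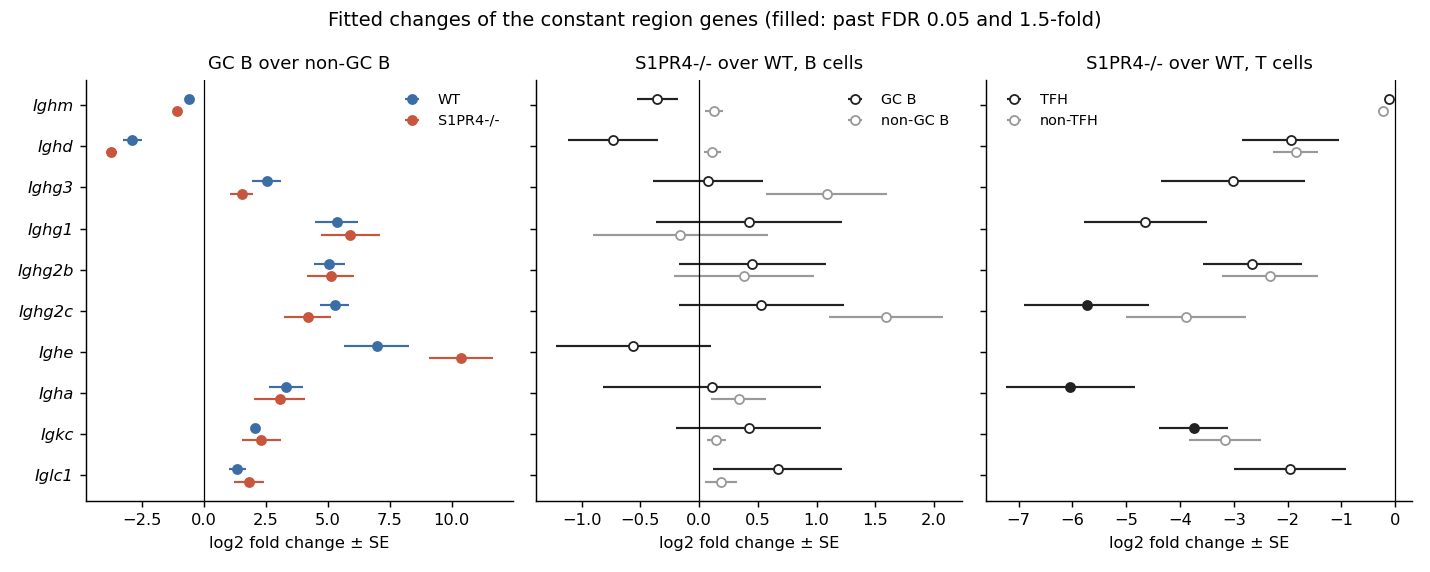
Log2 fold change ± SE of each of the 10 genes in 3 panels, for GC against non-GC B cells, S1PR4-/- against WT B cells and the T cell comparisons, with a different x scale in each. Filled points passed an FDR of 0.05 and a fold change of 1.5: all 10 genes between GC and non-GC B cells in each genotype, none between genotypes in B cells, and Igkc, Ighg2c and Igha between genotypes in TFH cells.

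The shares showed no genotype difference in GC B cells either. The mean S1PR4-/- share differed from the WT share by -3.63 percentage points for Ighg1, -0.16 for Ighg2b, 1.44 for Ighg2c and 2.37 for Ighm, against within-group SDs of 4.10 to 20.0 points for these 4 genes, and no heavy chain share had an adjusted exact permutation p below 0.81. In non-GC B cells 9 genes were tested (Ighe was too low) and none was called, in a comparison where 0.0537% of all genes were. The gene with the lowest p was Ighg2c, at 109, 46.3, 208, 75.3 and 43.7 CPM in WT and 100, 391, 279 and 394 CPM in S1PR4-/- samples. Of the 4 S1PR4-/- samples, 3 were above every WT sample and 1 was among them. Its log2 fold change was 1.59 (SE 0.49) with an unadjusted p of 0.00704 and an FDR of 0.981 by edgeR, and its share was 2.38% against 0.82%, with an exact permutation p of 0.0397 and 0.119 adjusted (n = 4 and 5). The log2 fold changes of the other 8 were 0.13 for Ighm, 0.11 for Ighd, -0.16 for Ighg1, 0.38 for Ighg2b, 1.09 for Ighg3, 0.34 for Igha, 0.14 for Igkc and 0.19 for Iglc1. DESeq2 called none of the 9.

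No gene passed an FDR of 0.05 in edgeR for a GC to non-GC change that differed between genotypes (0% of the 14490 genes tested, with 664 at an unadjusted p below 0.05, and 6 genes by DESeq2). Among the 10 constant genes, Ighm had an unadjusted p of 0.0361 (difference of log2 fold changes -0.48, SE 0.22, FDR 1) and the others were above 0.05. None of the genes in the lists above was called between genotypes in GC or non-GC B cells.

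The last comparisons concerned the signal of these genes in the T cell samples, since T cells make no antibody. Ighm behaved unlike the other members: it was present at 737 to 1335 CPM in all 24 samples, with a coefficient of variation of 15.3%. Its mean was 15.1% of the non-GC B cell mean in WT TFH cells, 12.8% in S1PR4-/- TFH cells, 18.8% in WT non-TFH cells and 14.7% in S1PR4-/- non-TFH cells. Ighd was 1.42 to 63.9 CPM, and its means in the same order were 0.76, 0.19, 0.18 and 0.05% of the non-GC B cell mean of the same genotype. Of the other members, Ighg2b, Ighg2c and Igha were higher on average in WT TFH than in WT non-GC B cells, at 161, 251 and 182% of their means there, though at 5.02, 6.77 and 19.1% of those in GC B cells. The Ighg2b and Ighg2c means leaned on TFH replicates 4 and 5 (938 and 982 CPM, and 499 and 608 CPM). Their medians, 346 and 119 CPM in WT TFH, were also above those in WT non-GC B cells (207 and 75.3 CPM). The Igha mean leaned on replicate 4 (39.0 CPM, against 0.09 to 9.13 in the others). Its median was 5.53 CPM in WT TFH and 5.81 CPM in WT non-GC B cells. Igkc ranged 867-fold, from 0.90 to 785 CPM, and its means were 12.7, 0.86, 0.95 and 0.10% of those in non-GC B cells.

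**Figure D5:**
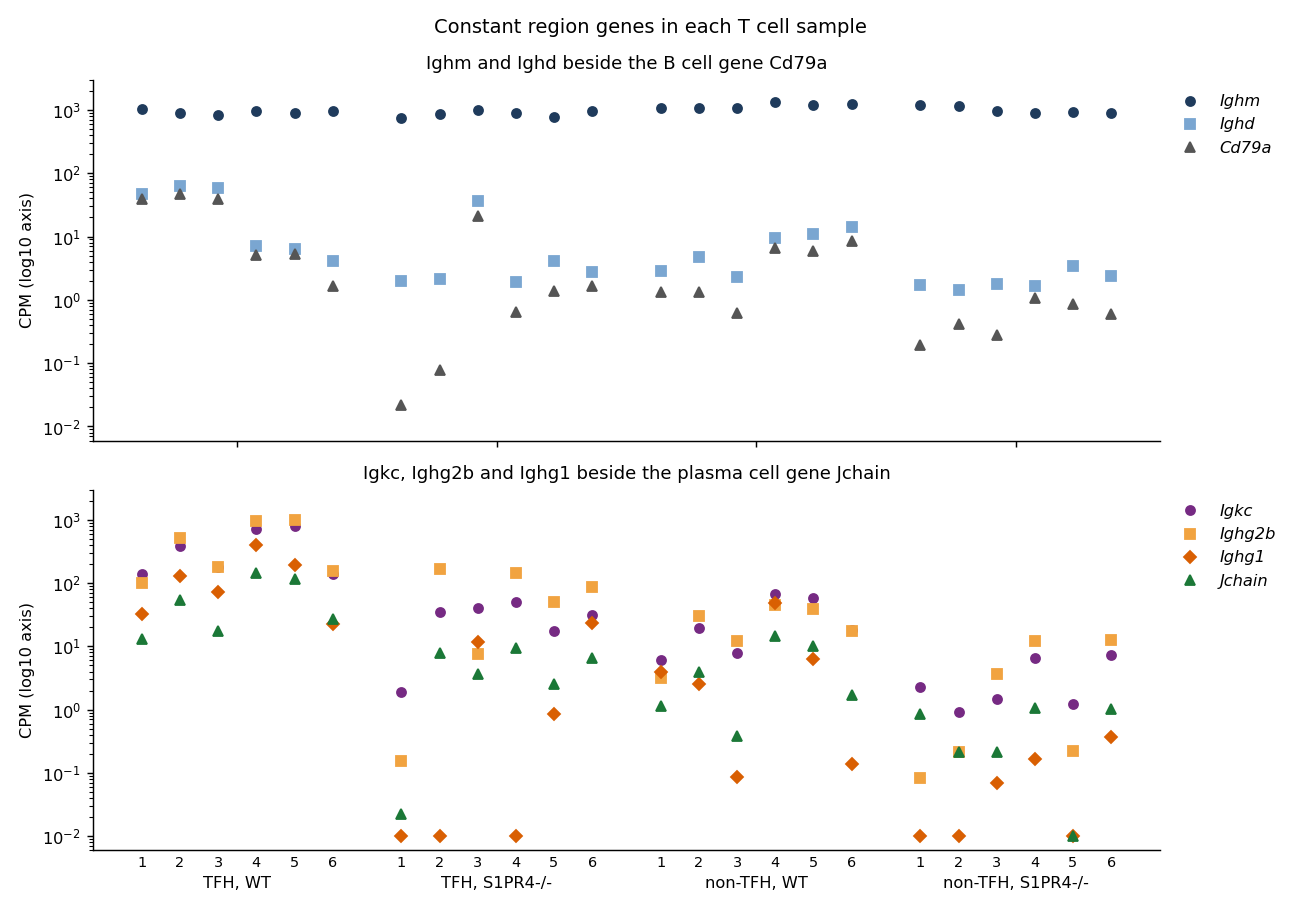
Levels (CPM, log10 axis) in each of the 24 T cell samples, in 1 panel for Ighm, Ighd and the B cell gene Cd79a and 1 for Igkc, Ighg2b, Ighg1 and the plasma cell gene Jchain, with the lowest values drawn at the bottom of the axis. Ighm stays between 737 and 1335 CPM in every sample, while the other genes vary by orders of magnitude and are highest in WT TFH cells.

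The ratios of the genes in T cell samples were compared with those in B cells. The count ratio of Ighm to Ighd was 1.295 to 1.84 in non-GC B cells and 4.93 to 17.8 in GC B cells, and it was 13.97 to 239 in WT TFH, 27.2 to 467 in S1PR4-/- TFH, 89.4 to 466 in WT non-TFH and 263 to 802 in S1PR4-/- non-TFH cells. The ratio of Ighm to Cd79a was 1.66 to 3.40 in B cells and at least 19.0 in every T cell sample with 10 or more Cd79a counts. The ratio of Ighd to Cd79a, in contrast, was 1.39 to 1.59 in non-GC B and 0.15 to 0.62 in GC B cells. It was 1.197 to 2.49 in WT TFH, 1.65 to 2.96 in S1PR4-/- TFH, 1.44 to 3.81 in WT non-TFH and 1.55 to 6.25 in S1PR4-/- non-TFH cells, over samples with 10 or more Cd79a counts. Igkc to Jchain was 2.54 to 4.98 in GC B and 14.1 to 219 in non-GC B cells, and 4.94 to 10.6 in WT TFH, 4.497 to 11.02 in S1PR4-/- TFH, 4.53 to 20.6 in WT non-TFH and 2.65 to 7.03 in S1PR4-/- non-TFH cells, over samples with 10 or more Jchain counts. The 12 B cell markers summed to 159 to 473 CPM in WT TFH cells and 161 to 293 CPM in S1PR4-/- TFH cells, none at 0 throughout, against 7789 to 17240 CPM in B cell samples, and to 59.2 to 105 CPM in non-TFH cells of both genotypes. Much of the sum in TFH cells was Cd22, whose mean was 179 CPM in WT and 194 CPM in S1PR4-/- samples. The part of other cells in these counts was not tested.

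Between TFH and non-TFH cells of WT mice, 8 genes were tested (Igha and Ighe were too low) and 6 were called higher in TFH cells (22.8% of all genes were), with a median log2 fold change of 3.29 beside 0.000 over all genes. Ighg2b was 101 to 982 CPM (median 346) in WT TFH samples and 3.21 to 45.3 CPM (median 23.8) in WT non-TFH samples, which did not overlap (log2 fold change 4.29, SE 0.70, FDR 6.56e-05). Igkc rose by 3.74 (SE 0.67, FDR 1.56e-04), also without overlap, and Ighd, Ighg1, Ighg2c and Iglc1 by 2.07 to 3.78, with overlap. Iglc1, at 0 to 1.43 CPM in WT non-TFH samples, passed the low-count filter largely through TFH samples. Ighd was not called with limma voom (log2 fold change 1.52, FDR 0.117) or with the replicate number as a block (1.56, FDR 0.209). Ighm went the other way, with a log2 fold change of -0.32 (SE 0.07, FDR 8.93e-04) that was under the 1.5-fold limit. Of 12 B cell markers 11 were called higher in TFH cells and Cd72 was called lower. Of 7 plasma cell markers tested 5 were called higher, where 22.8% of all genes were. Among them Cd79a rose by 2.47 (FDR 0.0128) and Jchain by 3.54 (FDR 0.00104). The rise of Cd79a, like that of Ighd, came from TFH replicates 1 to 3. In replicates 4 to 6 Cd79a was 5.14, 5.24 and 1.64 CPM in TFH and 6.67, 5.99 and 8.59 CPM in non-TFH cells. Ighd was 7.21, 6.27 and 4.09 CPM in those TFH and 9.61, 11.1 and 14.1 CPM in those non-TFH samples. The WT TFH samples highest in Cd79a (replicates 1 to 3, 38.6 to 47.1 CPM against 1.64 to 5.24) were not those highest in Jchain (replicates 4 and 5, 143 and 115 CPM against 13.2 to 53.8), and Igkc and Ighg2b were highest in replicates 4 and 5.

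In S1PR4-/- mice only 4 genes were high enough to be tested, and 3 were called higher in TFH cells (22.3% of all genes were). Igkc was 1.93 to 50.8 CPM (median 32.9) in TFH and 0.90 to 7.23 CPM (median 1.87) in non-TFH cells (log2 fold change 3.18, SE 0.67, FDR 7.48e-04). Ighg2b was 0.16 to 167 CPM (median 68.5) against 0.08 to 12.8 CPM (median 1.95), with a log2 fold change of 3.97 (SE 1.201, FDR 0.00884). Both ranges overlapped, and limma voom did not call Ighg2b (FDR 0.295). Ighd was called (2.01, SE 0.74, FDR 0.0261), but its change was 0.31 without TFH replicate 3, whose 36.9 CPM stood against 1.89 to 4.04 CPM in the other 5. With the replicate number as a block its FDR was 0.181, and 2 of the genes were called. Ighd was also lost without non-TFH replicate 2, 3 or 4 (FDR 0.0524, 0.0502 and 0.0509).

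Between genotypes, all 9 genes tested had negative log2 fold changes in S1PR4-/- against WT TFH cells (Ighe was too low to test), with a median log2 fold change of -3.01 beside -0.002 over all genes, and 3 were called lower (0.4% of all genes were). Ighg1, Ighg2c and Igha were near 0 in most S1PR4-/- samples and passed the low-count filter largely through WT samples, which partly fixed their direction. Igkc, Ighg1, Ighg2b and Ighg2c were all highest in WT replicates 4 and 5, so the 9 directions are not independent. Igkc was 140, 390, 181, 708, 785 and 137 CPM in WT and 1.93, 34.9, 39.8, 50.8, 17.4 and 30.9 CPM in S1PR4-/- TFH samples. The highest S1PR4-/- sample was below the lowest WT sample, and the log2 fold change was -3.75 (SE 0.65, FDR 0.023). Ighg2c was 52.4 to 608 CPM (median 119) in WT and 0 to 19.7 CPM (median 0.26) in S1PR4-/- samples, also without overlap (-5.74, SE 1.16, FDR 0.0357), and its size depends on how the 2 S1PR4-/- samples at 0 were treated. Igha was 0.09 to 39.0 CPM against 0.03 to 0.43 CPM, with overlap (-6.04, SE 1.203, FDR 0.0345). Its S1PR4-/- samples had 1 to 17 counts, at or near the floor, so no size is read from this change. The Igha call was lost in 6 of 12 refits that left out 1 sample. With limma voom neither Ighg2c (-9.05, FDR 0.0934) nor Igha (-4.58, FDR 0.274) was called.

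Ighg1 was 22.3 to 395 CPM (median 102) in WT TFH samples and 0, 0, 11.6, 0, 0.86 and 23.1 CPM in S1PR4-/- ones and missed the threshold (log2 fold change -4.65, SE 1.14, FDR 0.0552). Ighg2b was 101 to 982 CPM against 0.16 to 167 CPM (-2.65, SE 0.93, FDR 0.139). Ighm was 829.2 to 1032 CPM against 737 to 1005 CPM (-0.12, SE 0.08, FDR 0.441). Jchain was lower as well (-3.64, SE 0.74, FDR 0.038, called), and Cd79a had a log2 fold change of -2.49 (SE 1.12, FDR 0.246). Of 7 plasma cell markers tested 3 were called lower (Jchain, Mzb1 and Derl3), where 0.4% of all genes were, and the list's median was -1.35. None of the 12 B cell markers was called, with a median log2 fold change of -2.12, and the mean of Cd22 was not lower. The part of these markers in the result was not tested. The count of 3 fell to 0 without WT TFH replicate 2 or 5 or S1PR4-/- TFH replicate 5, to 1 without S1PR4-/- replicate 1 or 6, and to 2 without WT replicate 3 or S1PR4-/- replicate 4, and it rose to 4 without WT replicate 6 and to 5 without S1PR4-/- replicate 3. Without those samples the FDR of Igkc, where it was lost, was 0.0543, 0.0587 and 0.0566.

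In non-TFH cells 5 genes were tested between genotypes and none was called by edgeR (0.114% of all genes were), although all 5 had an unadjusted p below 0.05 and negative log2 fold changes, with a median of -2.32 (0.004 over all genes). Ighg2c was 0 to 7.21 CPM (median 0.11) in S1PR4-/- samples and passed the low-count filter largely through WT samples. DESeq2 called Ighd and Igkc. Igkc was 6.00, 19.3, 7.80, 65.9, 58.3 and 18.4 CPM in WT and 2.29, 0.90, 1.45, 6.43, 1.21 and 7.23 CPM in S1PR4-/- non-TFH samples, so that 2 S1PR4-/- samples lay above the lowest WT sample (log2 fold change -3.17, SE 0.67, FDR 0.0671). Ighd had a log2 fold change of -1.85 (SE 0.41, FDR 0.082), Ighg2c of -3.89 (SE 1.11, FDR 0.178), Ighg2b of -2.32 (SE 0.89, FDR 0.34) and Ighm of -0.23 (SE 0.09, FDR 0.342). The number called rose to 1 without WT replicate 1 or 6 or S1PR4-/- replicate 4 and to 3 without WT replicate 3. Whether the TFH to non-TFH change differed between genotypes was tested for 9 genes, and none passed an FDR of 0.05 in edgeR or DESeq2 or an unadjusted p of 0.05 in edgeR (0.0139% of all genes passed the former).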

How the data were processed

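RNA-seq of 45 sorted samples in 8 groups was used. Per the labels and the study's methods, adapters were removed by the authors (Cutadapt 2.10) before alignment to mm10 (STAR 2.5.3) and gene counting (RSEM 1.3.0). The deposited values are RSEM expected counts (estimated counts, 8.83% of them not whole), not scaled, for 55450 genes. They were rounded to whole numbers for the tests. The methods name GENCODE M30, but 55423 of the symbols match GENCODE M21, from which coordinates were taken, and repeated symbols (111) were kept apart. RSEM divides reads that match several genes by estimation, which bears on the γ genes. It counts reads, not molecules.

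The 10 genes and all lists were chosen with earlier results of these data known, by symbol or known function: all 10, where tested, are named in each B cell comparison of levels, and beyond them the genes of the lists and, for each member, the 3 genes most correlated with it. Some genes counted in the lists are not reported here by name.

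Main tests were edgeR 4.0.16 quasi-likelihood fits (R 4.3.3) with TMM factors and the filterByExpr filter, on the samples of the groups compared, adjusted by Benjamini-Hochberg over all genes tested. SE was the log2 fold change over the root of the F statistic. CPM values used TMM factors over all 45 samples. Shares came from unscaled counts and were compared with two-sided exact permutation tests of the mean difference. Counts of 3 or fewer per sample (0.07 to 0.12 CPM) were taken as the floor, which covers counting error only. Alternatives were DESeq2 1.42.0, limma voom (limma 3.58.1), other size factors, total counts, no filter, all groups in one fit, a block for the replicate number, and each replicate left out (135 refits). On simulated data with 200 genes changed by 2-fold, 71.5% were recovered for GC against non-GC B cells in WT, 62.5% in S1PR4-/- mice, 78.5% between genotypes in GC B cells and 83.5% in TFH cells.

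The labels number the samples of each group. Same-numbered S1PR4-/- TFH and non-TFH samples deviated together in 6 of 6 pairs (r of 0.18 to 0.29). In WT TFH and non-TFH cells r was also positive in all 6 pairs (0.09 to 0.38). Same-numbered TFH and non-TFH samples of a genotype also stand next to each other in the deposited counts. No label names a mouse, so whether samples of the same number are paired is not known. In each of the other comparisons at least 1 pair had a negative r. The main fits used no pairing, and the replicate number entered only as a block among the alternatives.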

Additional observations from a re-analysis of the deposited data

Results flagged for a closer look

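Of 113 sets of 4 to 6 values (a gene's level, or a share, in a group), 21 had a highest or lowest sample that stood apart from the rest by Dixon's test at 95%, which chance alone gives in about 1 of 20. The values are right-skewed, and 20 of the 21 were high. In S1PR4-/- GC B cells, replicate 3 stood apart for Ighg1 (74963 CPM against 2339 to 19118 in the others), Igkc (54697 against 3115 to 21012) and Igha (247 against 10.6 to 42.1), replicate 1 for Ighe (788 against 40.0 to 187) and replicate 2 for Iglc1 (1492 against 144 to 609). In WT non-GC B cells, replicate 3 stood apart for Ighg2b (879 CPM against 91.1 to 212, and 6.43% of the heavy chain counts against 0.88 to 2.01%), for Ighe (13.0 CPM and 0.0946% against 0 in the others) and, as the lowest, for the Igha share (0.0284% against 0.0533 to 0.0609%).

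In S1PR4-/- TFH cells, replicate 3 stood apart for Ighd (36.9 CPM against 1.89 to 4.04) and Iglc1 (4.96 against 0 to 0.49), replicate 4 for Ighg2c (19.7 against 0 to 7.36), Ighg3 (5.89 against 0.03 to 0.74) and Igha (0.43 against 0.03 to 0.17), and replicate 6 for Ighe (0.42 against 0 to 0.07). In WT TFH cells, replicate 4 stood apart for Igha (39.0 CPM against 0.09 to 9.13). In WT non-TFH cells, replicate 4 did for Ighg1 (48.3 CPM against 0.09 to 6.24) and replicate 5 for Ighg3 (8.33 against 0 to 1.86), and in S1PR4-/- non-TFH cells replicate 4 for Ighg2c (7.21 against 0 to 1.25) and replicate 6 for Iglc1 (0.11 against 0 to 0.03). Several of these T cell values rest on few reads.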

How the results depend on the processing

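All 8 genes called higher and Ighd, called lower, kept their direction between GC and non-GC B cells under every alternative run, in both genotypes. Voom lost Igkc, Igha and Ighe in S1PR4-/- mice. With DESeq2 or its size factors Ighm left the WT calls, and with all groups in one fit Iglc1 left those of WT and Ighg3 those of S1PR4-/- mice. In T cells up to 6 members were too low to test, and the groups hold few samples. The causes of the shifts below were not tested.

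The number of 9 shares past the threshold in S1PR4-/- mice was 2 of the 8 that remain without Ighd in the sum (Ighd itself was among the 4, and Ighg1 was lost), and medians gave 0 in both genotypes. With 3 λ genes, medians or the replicate block, the Iglc1 share difference in S1PR4-/- mice (0.63 points) became -18.6, -0.15 and -0.78. Between genotypes, medians gave -0.044 points for Ighg3 and 0.0065 for Igha in GC B cells, and 1.35 for Ighg1, -0.0053 for Igha and 0.0014 for Ighe in non-GC B cells. The shortest transcript length, an alternative chosen after seeing the data, gave 0.0068 for Ighg2b.

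Between genotypes in GC B cells, limma voom gave log2 fold changes of -0.46 for Ighg1, -0.33 for Ighg2b, -0.11 for Ighg2c, -0.48 for Igha and -0.36 for Igkc, the replicate block -0.55, -0.46, -0.25, -0.80 and -0.45, and total counts -0.064 for Igha, all against positive main values and all uncalled. In non-GC B cells Ighg1 was 0.45 by voom and 0.14 with the block.

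DESeq2 called 14 genes between genotypes in GC B cells (8 by edgeR), 16 in non-GC B (7), 184 in TFH (67) and 56 in non-TFH cells (15), and 6 and 76 for the differences between populations in B and T cells (0 and 2). One fit of all groups called 25 in non-GC B, 153 in TFH and 5 for the B cell difference, and for the T cell difference voom and total counts called 1 and the block 41. Of the 10 genes, TFH against non-TFH in S1PR4-/- mice had 1 called by voom, 7 without the filter and 5 in one fit (3 by edgeR). Between genotypes voom called 1 in TFH cells (3), and in non-TFH cells DESeq2 and no filter called 2, the block and one fit 1 (0). With the replicate number as a block, Ighd was lost between S1PR4-/- TFH and non-TFH cells (FDR 0.181). Elsewhere the block lost Igha between S1PR4-/- GC and non-GC B cells (FDR 0.0969), exchanged Ighd (FDR 0.209) for Ighg3 between WT TFH and non-TFH cells, gained Igkc between genotypes in non-TFH cells (FDR 0.0477), and changed no other call among the 10 genes.

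Leaving out each replicate gave, between genotypes in GC B cells, log2 fold changes of -1.57 to 0.71 for Igha, -0.80 to 0.90 for Ighg1, -0.28 to 0.67 for Ighg2b, -0.022 to 0.83 for Ighg2c, -0.19 to 0.29 for Ighg3 and -0.52 to 0.63 for Igkc, and in non-GC B cells -0.47 to 0.79 for Ighg1. Share differences ran from -0.47 to 0.11 points for Ighd, -0.47 to 0.066 for Ighe, -9.59 to 2.46 for Ighg1, -3.22 to 3.22 for Ighg2b and -0.26 to 3.38 for Ighg2c in GC B cells. In non-GC B cells they ran from -0.0033 to 0.0097 for Igha, -2.80 to 0.042 for Ighd, -0.0222 to 0.0015 for Ighe, -1.01 to 0.88 for Ighg1 and -2.25 to 0.11 for Ighm. The Iglc1 difference in S1PR4-/- mice ran from -0.63 to 1.48, and 2 to 5 shares passed there. Genes called ran from 15 to 117 in TFH and 11 to 27 in non-TFH cells between genotypes, and 0 to 1 and 0 to 6 for the B and T cell differences. Members called ran from 0 to 5 in TFH and 0 to 3 in non-TFH cells.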

Other observations

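The genes outside the immunoglobulin loci whose log2 CPM followed each member most closely over the 21 B cell samples were sought among 11425 genes with a mean of at least 1 CPM. The samples fall into GC and non-GC B cells, so these correlations mostly follow that split, and they carry no test. Ighd was followed by Cnn3, Dpp4 and S1pr1, a receptor for exit from lymph nodes (Pearson r = 0.997, 0.997 and 0.996). Ighg1 was followed by Jchain, Tent5c and Slpi (0.983, 0.979 and 0.977), and Ighg2b by Jchain, Slpi and Derl3, a factor of protein quality control in the endoplasmic reticulum (0.978, 0.974 and 0.968). Ighg2c was followed less closely, by Itgb2, Prg2 and Itm2c (0.939, 0.929 and 0.928). For Igkc the closest were Edem2, H13 and Selenom (0.988, 0.980 and 0.979), and for Ighe Usp44, Atp11a and Pou2af1, an octamer coactivator of B cells (0.971, 0.964 and 0.962). Ighm was followed by H2-K1, Fam169b and Tcn2 (0.960, 0.959 and 0.958) and Igha by Lman2, Bsg and Mst1 (0.917, 0.908 and 0.900). The lowest values were those of Ighg3, with Pls1, Gm14434 and Cd36 (0.861, 0.820 and 0.818), and of Iglc1, with Tnfrsf17, the BCMA receptor of plasma cells, I830127L07Rik and Anp32a (0.779, 0.768 and 0.759).

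Among 8 myeloid markers, 5 were tested between GC and non-GC B cells in WT and 6 in S1PR4-/- mice. Lyz2, Csf1r and Itgam were called higher in GC B cells in both (24.8 and 25.3% of all genes were). The summed level of the 8 was low, at 35.1 to 205 CPM in WT GC and 13.2 to 48.6 CPM in WT non-GC B cells, which overlapped. In S1PR4-/- mice it was 30.2 to 125 CPM against 12.0 to 23.5 CPM.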
